A study of Mus musculus with 8 samples.

Results

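The E2F transcription factors and the cyclins and kinase that carry a cell into S phase were followed as a set of 10 genes chosen by name: E2f1, E2f2, E2f3, E2f7, E2f8, Ccne1, Ccne2, Ccna2, Cdk2 and Cdc25a. All 10 were found among the 55416 gene identifiers of the deposited count table, and all 10 passed the filter on low counts. Messenger RNA was sequenced from MB21 cells, a mouse medulloblastoma line grown unattached in medium with B27 supplement, after 5 days with 10 uM DS-1-38, a derivative of benzarone (4 libraries, called DS38), or with the DMSO vehicle (4 libraries, called DMSO). Both groups share the line's ptch mutation, which switches on Hedgehog signalling, and every result comes from this single line. The labels do not state whether libraries of 1 group are separate cultures, so every p-value reflects only the spread among these samples, and that spread may be technical. The DS38 libraries formed 2 sets: the chi-square per degree of freedom between their counts was 4.79 for replicates 1 and 2 and 4.25 for replicates 3 and 4, against 11.9 to 20.5 across the sets. The same split was weaker within DMSO. There the value was 5.01 for replicates 1 and 2 and 4.49 for replicates 3 and 4, against 5.17 to 8.22 across. The labels name no batch that would divide the libraries of either group. If the members of a set share a source, the p-values are too small.

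E2F factors bind promoters of genes needed for DNA synthesis and are held inactive in G1 by Rb1 and its relatives, the pocket proteins. Cyclin D kinases and then cyclin E with Cdk2 phosphorylate the pocket proteins, which frees E2f1, E2f2 and E2f3 to activate transcription, including that of several E2F and cyclin E genes themselves. E2f7 and E2f8 are E2F targets that repress the same promoters later in S phase, and Hedgehog signalling is a known driver of this machinery in granule neuron progenitors of the cerebellum, from which this tumour arises.

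Because E2F genes and their partners are known to carry E2F sites in their own promoters, the RefSeq promoter windows of the members (GRCm38.p6, 250 bases before to 50 after the start site) were searched for the core E2F motif. It was spelled TTCCCGC, or with other inner letters as TTCGCGC, or as TTGCCGC, or else as TTGGCGC, and was sought on both strands. Of the 10 members, 8 had an entry, with 10 windows in all, and Ccne2 and Ccna2 had none. A match was found in 6 of the 10 windows, those of E2f2, E2f3, E2f7, E2f8, Cdk2 and Cdc25a, whereas 9.57% of all 32851 windows held one. The windows were not matched for base composition, and the difference in frequency was not tested. The windows of E2f1 and Ccne1 did not hold these letters, which says nothing of sites elsewhere. Capitals mark the motif, and each sequence is 5′ to 3′ on the gene's strand. All 6 members with a match fell with DS-1-38. Of those whose windows held none, E2f1 fell and Ccne1 did not pass. A link between motif and response was not tested. The stretches below show the matches upstream of the start sites of E2f8, Cdc25a, E2f3 and Cdk2.
E2f8 (chr7:48881689-48881718, minus strand, motif from base -111): agaggcgcggaTTGGCGCgcggggccccgg
Cdc25a (chr9:109875502-109875531, plus strand, from base -66): gtgaattccgtTTGGCGCCAActaggaaag
E2f3 (chr13:29986056-29986085, minus strand, from base -11): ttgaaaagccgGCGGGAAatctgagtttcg
Cdk2 (chr10:128705173-128705202, minus strand, from base -140): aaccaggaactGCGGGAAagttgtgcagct
Cdk2 (chr10:128705043-128705072, minus strand, from base -10): gccagggaaacGCGGGAAggaggggcgggg

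In Cdc25a the run reads as the motif on both strands, since 2 matches overlap. E2f7 had 3 matches upstream of its start site, more than any other member, and its whole 250-base upstream window is shown for their spacing (chr10:110745189-110745438, GRCm38.p6, plus strand).
E2f7: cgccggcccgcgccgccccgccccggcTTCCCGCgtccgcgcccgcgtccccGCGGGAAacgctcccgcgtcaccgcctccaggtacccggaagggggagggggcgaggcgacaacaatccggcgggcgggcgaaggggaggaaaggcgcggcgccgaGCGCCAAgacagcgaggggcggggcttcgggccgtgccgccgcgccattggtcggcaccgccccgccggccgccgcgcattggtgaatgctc

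Of the 10 members, 8 fell with DS-1-38, 0 rose and 2, Ccne1 and Ccna2, did not pass the test. By the quasi-likelihood test of edgeR, with a Benjamini-Hochberg adjusted p under 0.05 as the threshold, 39.5% of the 15133 genes tested were called, 20.7% as falls and 18.8% as rises. The members were chosen with earlier results of these data known, so their count is no independent evidence of direction. For the same 8 members every DS38 library lay below every DMSO library, a pattern that 18.8% of all tested genes showed; 17.3% had every DS38 library higher, and 36.1% had groups apart in either direction. The falls were modest. The median log2 fold change of the 10 was -0.28, against -0.0093 over all genes tested, and the largest, that of Ccne2, was 1.63-fold. With library totals as the only scaling, 64.3% of all called genes were rises, against 47.5% in the main scaling, but 8 members still fell and 0 rose. The same 8 fell against the 4 DMSO libraries when either set of DS38 libraries was left out, with log2 fold changes of Ccne2 of -0.72 from replicates 1 and 2 and -0.69 from replicates 3 and 4. In bulk RNA, fewer cells in S phase and less of a transcript per cell cannot be told apart.

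**Figure D1:**
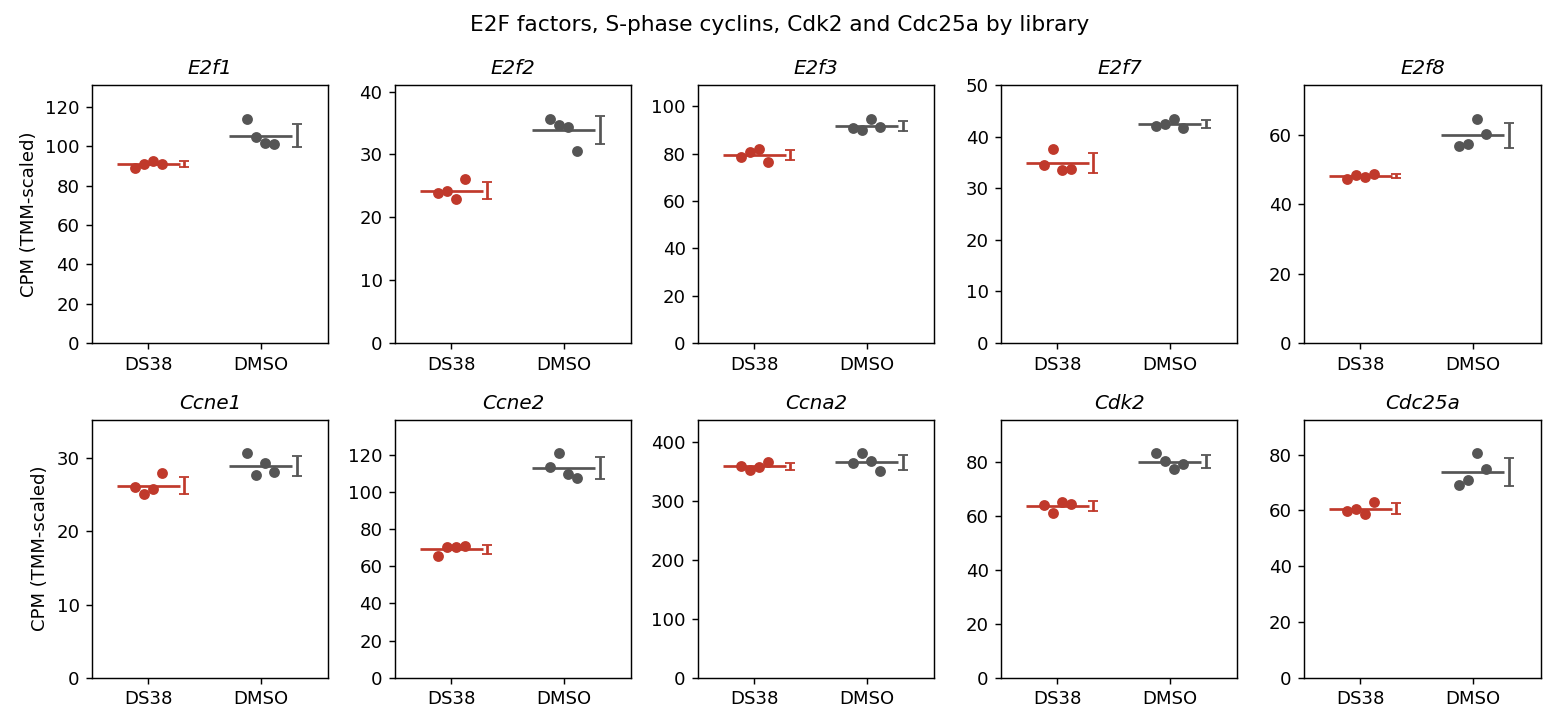
Expression of the 10 members in each library, in counts per 1000000 counts of the TMM-scaled library (CPM, vertical axis from 0) for the 4 DS38 and 4 DMSO libraries. Points are libraries, horizontal lines are means and bars are 1 SD; the groups overlap for Ccne1 and Ccna2 and do not overlap for the other 8 genes.

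Library totals ran from 17142397 to 28476019 counts in DS38 and from 18878556 to 25582159 counts in DMSO. In both groups replicates 1 and 2 had higher totals than replicates 3 and 4. The members had between 397 and 10244 counts per library. The markers of granule neuron progenitors, the labelled tumour's cell of origin, were all present, and of the 7 tested 4 rose, 2 fell and 1 did not pass. Atoh1, the defining transcription factor gene, rose, with 441 ± 5.42 CPM in DS38 and 278 ± 10.3 CPM in DMSO of the plain totals. Those that fell were the Hedgehog target gene Gli1, with 92.7 ± 3.72 CPM in DS38 and 134 ± 3.41 CPM in DMSO (log2 fold change -0.60, edgeR adjusted p = 2.65e-09), and Zic1 (log2 fold change -0.16, edgeR adjusted p = 0.00738). Markers of postmitotic neurons summed to 802 to 829 CPM in DS38 and 585 to 592 CPM in DMSO, and 6 of the 9 tested rose and 0 fell. The largest part of the difference in sums came from Cntn2, with 236 ± 6.30 CPM in DS38 and 121 ± 7.44 CPM in DMSO. Among these markers Rbfox3 leaned the other way without passing (log2 difference -0.10, edgeR adjusted p = 0.0536). The part of these markers in the falls of the members was not tested. Microglial markers summed to at most 0.176 CPM in any library, with Cx3cr1 at 0 counts, and endothelial ones to at most 2.68 CPM, with Cldn5 at 0. Oligodendrocyte markers summed to 13.1 to 15.2 CPM in DS38 and 12.2 to 14.9 CPM in DMSO, with Mag at 0 counts. Astrocyte markers summed to 353 to 382 CPM in DS38 and 336 to 377 CPM in DMSO, nearly all from the glutamate transporter genes Slc1a2 and Slc1a3, and 1 rose and 1 fell of 4 tested. Fibroblast markers summed to 51.3 to 55.5 CPM in DS38 and 70.7 to 75.2 CPM in DMSO, nearly all from the growth factor receptor gene Pdgfra, which fell, while Col1a1, below 1 CPM on average in both groups, rose.

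Among the activator E2Fs, which drive S-phase genes, E2f2 moved most. Its levels were 23.9, 24.1, 22.9 and 26.0 CPM in DS38 replicates 1 to 4, against 35.7, 34.7, 34.3 and 30.6 CPM in DMSO replicates 1 to 4. All DS38 libraries were lower, and the lowest DMSO library, replicate 4, still exceeded the highest DS38 library. The log2 fold change was -0.48 ± 0.061 (SE), a fall of 1.40-fold (edgeR adjusted p = 6.13e-06). Only 5.58% of tested genes had a lower log2 fold change.

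E2f1, the founding member of the family, had 88.8, 91.3, 92.7 and 90.9 CPM in DS38 and 114, 105, 102 and 101 CPM in DMSO. The DS38 libraries were close together, while DMSO replicate 1 stood highest. E2f1 fell by 0.22 on the log2 scale (SE 0.044, edgeR adjusted p = 0.000699), which is 13.9% lower. E2f3, whose locus gives a long and a short activator form that these gene counts do not separate, had 78.7, 80.5, 81.8 and 76.6 CPM in DS38 and 90.7, 90.0, 94.8 and 91.2 CPM in DMSO. Its groups did not overlap either, and its fall was of almost the same size, 0.21 on the log2 scale (SE 0.040, edgeR adjusted p = 0.000474).

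The atypical repressors, which bind DNA without a Dp partner and damp E2F targets, fell as well. E2f7 had 34.6, 37.7, 33.5 and 33.8 CPM in DS38 and 42.2, 42.5, 43.5 and 41.7 CPM in DMSO. The DMSO libraries lay within 2 CPM of each other and all stood above DS38 replicate 2, the highest treated one. The log2 fold change was -0.28 ± 0.050 (SE, edgeR adjusted p = 0.000245). E2f8 had 47.3, 48.4, 47.8 and 48.6 CPM in DS38 and 56.8, 57.5, 64.7 and 60.4 CPM in DMSO. Here the treated libraries were the tight group, with an SD of 0.589 CPM against 3.57 CPM in DMSO, and the log2 fold change was -0.32 ± 0.047 (SE, edgeR adjusted p = 4.20e-05).

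The cyclin E genes, whose products bind Cdk2 at the G1/S boundary, gave different calls: Ccne2 fell and Ccne1 did not pass. Ccne2 had 65.6, 70.3, 70.2 and 70.9 CPM in DS38 and 113, 121, 109.9 and 107 CPM in DMSO. The gap between the groups was wide, with the lowest DMSO library above the highest DS38 library by more than the whole range within either group. The log2 fold change was -0.71 ± 0.045 (SE, edgeR adjusted p = 9.43e-10), and 2.10% of tested genes had a lower one. Ccne1 had 26.1, 25.2, 25.9 and 27.99 CPM in DS38 and 30.7, 27.7, 29.4 and 28.2 CPM in DMSO.

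The Ccne1 groups overlapped, since DS38 replicate 4 exceeded DMSO replicate 2. Its log2 difference was -0.14 ± 0.057 (SE), with a 95% interval from -0.26 to -0.03, and it missed the threshold narrowly (edgeR adjusted p = 0.0532). It passed without DS38 replicate 4 (edgeR adjusted p = 0.0324) or without DMSO replicate 2 (edgeR adjusted p = 0.0483), in limma-voom (adjusted p = 0.0478), and in none of the other alternatives tried, so the data do not settle whether Ccne1 fell. The Ccne2 interval ran from -0.80 to -0.62 and lay wholly below that of Ccne1.

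Ccna2 encodes cyclin A2, which pairs with Cdk2 in S phase and with Cdk1 in G2. It had 359, 352, 357 and 367 CPM in DS38 and 364, 381, 367 and 351 CPM in DMSO. The groups overlapped across most of their range. The log2 difference was -0.03 ± 0.038 (SE), with an approximate 95% interval from -0.10 to 0.05 (edgeR adjusted p = 0.588). It became 0.03 under scaling by library totals. A change as large as that of Cdk2 or E2f8 lies outside this interval. Ccna2 had at least 6195 reads in every library.

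Cdk2, the kinase that both cyclin families activate, had 63.9, 60.8, 65.0 and 64.4 CPM in DS38 and 83.0, 80.3, 77.4 and 79.2 CPM in DMSO. Each group was tight and the groups stood well apart, with a log2 fold change of -0.33 ± 0.042 (SE, edgeR adjusted p = 5.70e-06). Cdc25a encodes the phosphatase that removes inhibitory phosphates from Cdk2. It had 59.6, 60.7, 58.7 and 63.2 CPM in DS38 and 69.0, 70.9, 80.5 and 74.9 CPM in DMSO, a log2 fold change of -0.28 ± 0.049 (SE, edgeR adjusted p = 0.000181). The DMSO libraries of Cdc25a were spread, replicate 3 being highest, yet all exceeded every DS38 library.

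**Figure D2:**
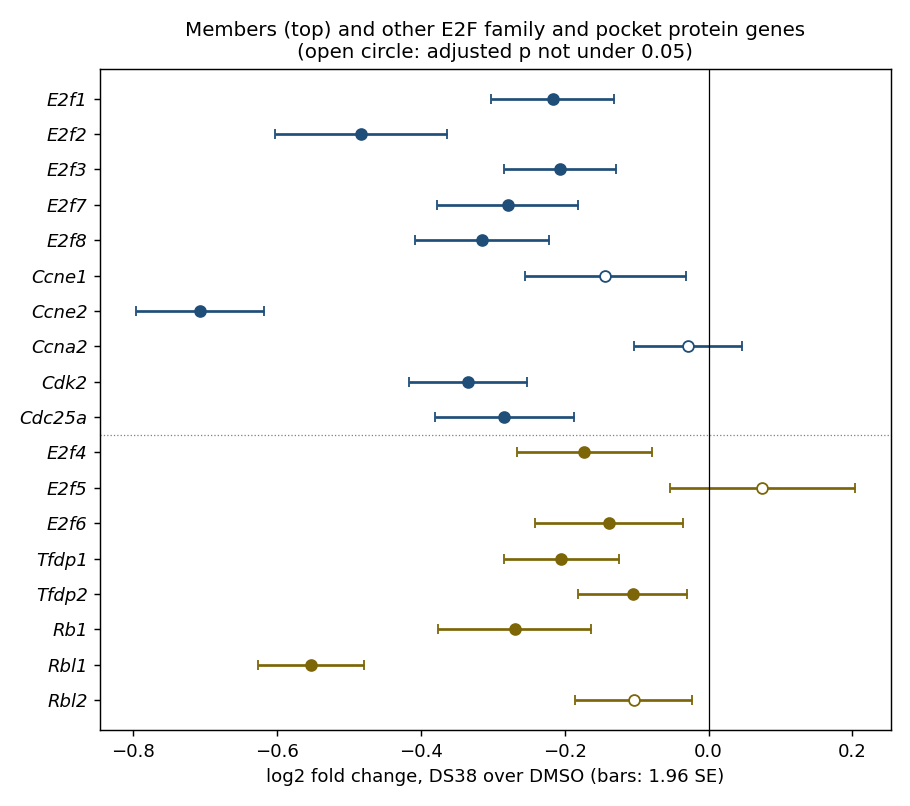
Log2 fold change of DS38 over DMSO (horizontal axis) for the 10 members (upper block, blue) and for the 8 other E2F family and pocket protein genes (lower block, ochre), with 95% interval bars. Filled circles passed an adjusted p under 0.05; Ccne2 at -0.71 and Rbl1 at -0.55 lie farthest from 0, and Ccne1, Ccna2, E2f5 and Rbl2 are open.

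Whether related members responded differently was tested on their ratio within each library, which does not depend on how libraries are scaled. The log2 ratio of Ccne2 to Ccne1 counts averaged 1.40 ± 0.0752 in DS38 and 1.962 ± 0.111 in DMSO (SD, n = 4 each), a difference of -0.56. All 4 DS38 libraries were below all DMSO libraries, and the exact two-sided permutation test gave p = 0.0286, the smallest that 4 against 4 libraries allow. Adjusted by Benjamini-Hochberg over the 4 ratios tested it was 0.0571 and did not pass. The log2 ratio of E2f1 to E2f2 averaged 1.91 ± 0.0877 in DS38 and 1.64 ± 0.0740 in DMSO (SD, n = 4 each), higher in all DS38 libraries by 0.27 on average (exact permutation p = 0.0286, adjusted 0.0571). With 4 ratios and this smallest p, adjusted values could pass only if at least 3 ratios reached it.

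In the other pairs the groups overlapped. The log2 ratio of E2f7 to E2f8 averaged -0.46 ± 0.0752 in DS38 and -0.49 ± 0.0700 in DMSO (SD, n = 4 each, exact permutation p = 0.571, adjusted 0.762). That of E2f1 to E2f3 averaged 0.20 ± 0.0345 in DS38 and 0.20 ± 0.0980 in DMSO (SD, n = 4 each, exact permutation p = 0.914, adjusted 0.914). These p-values do not show that the paired genes respond alike. Leaving out any single library kept the E2f7 to E2f8 difference between -0.0033 and 0.05 and the E2f1 to E2f3 difference between -0.04 and 0.04.

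**Figure D3:**
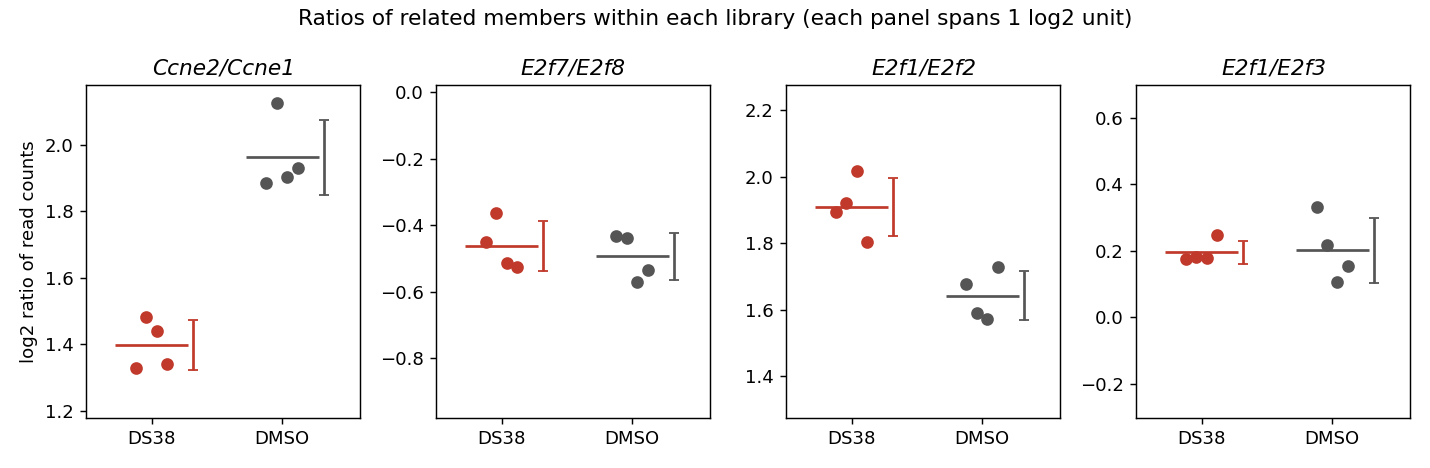
Log2 ratio of the read counts of 2 related members within each library (vertical axis, each panel spanning the same log2 distance), for the 4 DS38 and 4 DMSO libraries with means and SD. The groups stand apart for Ccne2/Ccne1, lower in DS38, and E2f1/E2f2, higher in DS38, and overlap for E2f7/E2f8 and E2f1/E2f3.

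Levels were compared between genes per length, as CPM per kilobase of the gene length given with the counts (RPKM). That length covers all annotated exons, so genes with long alternative exons come out too low. Ccna2 led by far, with 87.8 ± 1.44 RPKM in DS38 and 89.6 ± 3.04 RPKM in DMSO (SD, n = 4 each). E2f1 was next, with 28.8 ± 0.502 RPKM in DS38 and 33.5 ± 1.89 RPKM in DMSO. Ccne2 had 19.8 ± 0.695 RPKM in DS38 and 32.3 ± 1.67 RPKM in DMSO, so it lay within the spread of E2f1 in DMSO and clearly below it in DS38. At the low end, E2f2 had 4.96 ± 0.268 RPKM in DS38 and 6.93 ± 0.460 RPKM in DMSO, and E2f7 had 3.87 ± 0.213 RPKM in DS38 and 4.71 ± 0.0871 RPKM in DMSO.

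Between them came E2f3, Cdk2, Ccne1, E2f8 and Cdc25a, in this order in DS38, from 14.6 to 7.55 RPKM. In DMSO the order was E2f3, Cdk2, E2f8, Ccne1 and Cdc25a, from 16.9 to 9.20 RPKM, and the exchanged pair, E2f8 at 10.996 ± 0.656 and Ccne1 at 10.9 ± 0.503 RPKM, lay within each other's spread there. In DS38, Cdk2 at 10.2 ± 0.301 and Ccne1 at 9.87 ± 0.455 RPKM did too. Per length, Ccne2 made up 66.7% ± 1.16 of the cyclin E transcripts in DS38 and 74.8% ± 1.43 in DMSO, so it remained the main cyclin E transcript in every library. The share of E2f7 and E2f8 in the 5 E2F members was 20.8% ± 0.365 in DS38 and 21.5% ± 1.17 in DMSO, with overlapping ranges.

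The rest of the E2F family and the pocket proteins leaned the same way, with a smaller median change. The 8 such genes split into 6 that fell, 0 that rose and 2 below the threshold (median log2 fold change -0.16). Over all tested genes 20.7% fell and 18.8% rose. The count of 6 depended on the settings: it was 3 with library totals alone, and 4 with DESeq2, with DESeq2's size factors, with either other filter on low counts, with the replicate number as a block and without either set of DS38 libraries. Rbl1, which encodes the pocket protein p107 and is itself a known E2F target, had 68.9, 68.3, 68.2 and 68.2 CPM in DS38 and 99.8, 98.8, 103 and 100.2 CPM in DMSO. The groups stood far apart beside SDs of 0.331 CPM in DS38 and 1.65 CPM in DMSO, and the log2 fold change was -0.55 ± 0.038 (SE, edgeR adjusted p = 2.47e-09). Rb1, the founding pocket protein gene, fell by 0.27 on the log2 scale (SE 0.054, edgeR adjusted p = 0.000758), with 71.7 ± 4.69 CPM in DS38 and 86.6 ± 5.81 CPM in DMSO. Rbl2, which encodes p130, the pocket protein of resting cells, had 57.5 ± 1.76 CPM in DS38 and 61.8 ± 0.989 CPM in DMSO and did not pass (log2 difference -0.10, edgeR adjusted p = 0.0550). It passed without DS38 replicate 1 (edgeR adjusted p = 0.0458) and in the fit corrected for gene length (edgeR adjusted p = 0.00746).

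Tfdp1, the main dimerisation partner of the E2Fs, fell by 0.20 on the log2 scale, with 234 ± 6.96 CPM in DS38 and 269 ± 11.7 CPM in DMSO (SD, n = 4 each, edgeR adjusted p = 0.000652). E2f4, a factor that acts mostly as a repressor with the pocket proteins, fell by 0.17 (edgeR adjusted p = 0.00786), a call lost under scaling by library totals (adjusted p = 0.0759) and in the fit corrected for gene length (adjusted p = 0.0600), and without DS38 replicates 3 and 4 (adjusted p = 0.0612). The calls of E2f6, a repressor that does without pocket proteins (log2 fold change -0.14, edgeR adjusted p = 0.0448), and of the partner gene Tfdp2 (log2 fold change -0.11, edgeR adjusted p = 0.0383) were lost in 14 and 15 of the 19 alternatives, so neither is a firm fall. DESeq2 gave an adjusted p of 0.0968 for E2f6 and 0.0742 for Tfdp2, library totals alone gave 0.252 for E2f6 and 0.392 for Tfdp2, and the replicate block gave 0.0700 for E2f6 and 0.0879 for Tfdp2. Both were also lost with DESeq2's size factors and with either other filter on low counts. Among left-out libraries, the call of E2f6 was lost without DS38 replicate 1 or 2 or any 1 DMSO library (edgeR adjusted p from 0.0577 to 0.183), and that of Tfdp2 without any 1 DS38 library or DMSO replicate 3 or 4 (adjusted p from 0.0542 to 0.121). E2f5, another pocket-bound repressor, had 19.1 ± 1.20 CPM in DS38 and 18.1 ± 0.513 CPM in DMSO and did not pass (log2 difference 0.07, edgeR adjusted p = 0.387), though in the fit corrected for gene length it did (log2 fold change 0.16, adjusted p = 0.0485).

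Subunits of the MuvB core form the DREAM repressor complex with pocket proteins and E2f4. The list held genes of this core and Mybl2, and its entry Lin54 was not matched to an identifier. Of 5 measured, Mybl2 among them, 3 fell and 0 rose, where 20.7% of all tested genes fell and 18.8% rose. With library totals alone 2 were called, and the count was not tested against those shares. Mybl2, an E2F target that joins MuvB in proliferating cells, fell by 0.24 in log2 units (edgeR adjusted p = 0.000635), and Lin52 fell by 0.23 (edgeR adjusted p = 0.00275). Rbbp4, a histone-binding subunit, fell by 0.14 (edgeR adjusted p = 0.0157), a call lost without DS38 replicate 1 (adjusted p = 0.0539) or DMSO replicate 1 (adjusted p = 0.0568), without DS38 replicates 1 and 2 (adjusted p = 0.125), and under scaling by library totals (adjusted p = 0.151). Lin9 had 66.8 ± 3.12 CPM in DS38 and 67.7 ± 2.28 CPM in DMSO and did not pass (edgeR adjusted p = 0.751).

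Falls among the regulators of Cdk2 activity took in genes that restrain the kinase and genes that help it. Among 13 tested there were 8 falls, 2 rises and 3 genes that missed the threshold (median log2 fold change -0.23). Of all tested genes, 20.7% fell and 18.8% rose. Cdkn1a, the p21 inhibitor of Cdk2, fell to 24.9 ± 1.56 CPM in DS38, against 40.8 ± 3.19 CPM in DMSO (log2 fold change -0.71 ± 0.063 SE, edgeR adjusted p = 8.79e-08). Its change was about as large as that of Ccne2. Wee1, the kinase that adds the phosphates Cdc25a removes, fell by 0.31 in log2 units (edgeR adjusted p = 5.47e-06), and Fbxo5, the inhibitor of cyclin A degradation and a known E2F target, fell by 0.45 (edgeR adjusted p = 1.14e-07). The risers were Cdc25c, the phosphatase relative of Cdc25a that serves entry into mitosis, higher by 0.36 in log2 units (edgeR adjusted p = 3.76e-05), and Btrc, a ubiquitin ligase subunit gene that targets Cdc25a protein, with 0.24 (edgeR adjusted p = 0.00152). Btrc was named after its value was seen, to complete the count.

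Among 12 other cyclins and Cdks there were 6 falls, 3 rises and 3 genes below the threshold (median log2 fold change -0.11). The shares over all tested genes were 20.7% falls and 18.8% rises. Cdk1, the partner of cyclins A and B, fell by 0.33 on the log2 scale, with 193 ± 9.11 CPM in DS38 and 243 ± 5.58 CPM in DMSO (SD, n = 4 each, edgeR adjusted p = 4.90e-06). The mitotic cyclin genes went the other way. Ccnb1 rose to 290.3 ± 8.59 CPM in DS38, against 239.7 ± 8.55 CPM in DMSO (log2 fold change 0.28, edgeR adjusted p = 2.63e-05), and Ccnb2 rose by 0.30 in log2 units (edgeR adjusted p = 3.33e-05). The third riser was Ccna1, the cyclin A gene known from the germ line and named after its value was seen, which stayed low at 3.66 ± 0.422 CPM in DS38 and 2.15 ± 0.120 CPM in DMSO (log2 fold change 0.78, edgeR adjusted p = 0.000502). Ccnd1, which acts upstream with Cdk4 and Cdk6, fell by 0.38 in log2 units (edgeR adjusted p = 5.50e-07).

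E2F target genes of the G1/S transition fell nearly throughout, with 37 falls, 0 rises and 3 genes not passing among 40 tested, and a median log2 fold change of -0.33. The 3 were the helicase genes Mcm2 and Mcm6 and the histone methyltransferase gene Ezh2, all named after their values were seen. The smallest p-values belonged to Rrm2, Cdc45, Pcna and Chek1, with log2 fold changes of -0.79, -0.76, -0.64 and -0.57 (edgeR adjusted p up to 1.28e-08). Of the members, Ccne2 alone fell by more than 0.5 on the log2 scale. Of 20 G2/M genes, 8 rose, 4 fell and 8 did not pass (median log2 fold change 0.07). Beside both lists, the shares over all tested genes were 20.7% falls and 18.8% rises. In log2 units Cenpe, a kinetochore motor gene, rose by 0.43, Cenpa, which encodes the centromeric histone, by 0.38, and Tpx2, a gene of spindle assembly, by 0.29, whereas the topoisomerase gene Top2a fell by 0.28. Falls at G1/S and mixed changes at G2/M in these libraries were known when the lists were drawn up, so these counts are no independent evidence of direction.

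**Figure D4:**
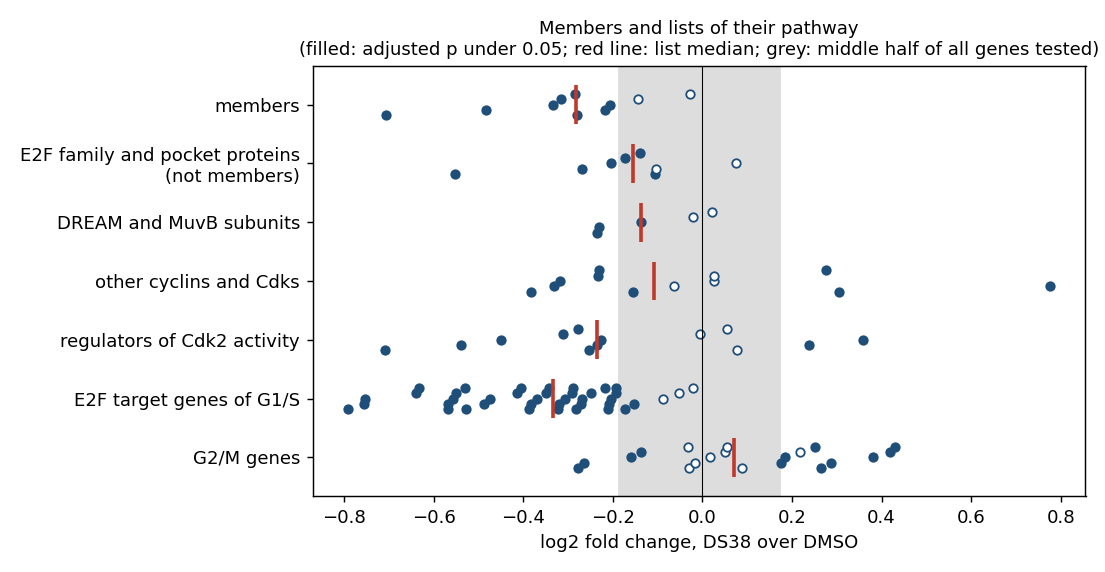
Log2 fold change of DS38 over DMSO (horizontal axis) for the members and 6 lists of their pathway, each point a gene, filled where the adjusted p is under 0.05, with the list median in red. The grey band spans the interquartile range of all 15133 tested genes, -0.19 to 0.17. The medians of the members (-0.28), the E2F targets (-0.33) and the regulators of Cdk2 activity (-0.23) lie to its left. Those of the other lists, with the G2/M genes at 0.07, lie inside it.

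The genes whose profile over the 8 libraries lay nearest to that of E2f1, by the root mean square difference of centred log2 CPM among the 10217 genes searched, were Glod4 (0.0226), Golt1b (0.0278) and Eef1g, a translation elongation factor subunit gene (0.0286). E2f3, the nearest member, was at 0.0637. Nearest to Ccne2 were the translation initiation factor gene Eif1 (0.0410), the proton pump subunit gene Atp6v1g1 (0.0491) and the neuronal calcium sensor gene Hpca (0.0492), and the nearest member was E2f2 at 0.131. Because these genes were picked by profile over the same libraries, their log2 fold changes had to lie close to that of the member. They ran from -0.22 to -0.20 around E2f1 and from -0.66 to -0.64 around Ccne2. Far more genes were searched than there are members, so a nearer profile outside the members says nothing about the members.

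Some members share exon bases with another gene in an earlier annotation (GENCODE M21). Whether counting used strand is not given in the sources used here, so their reads cannot be assigned with certainty. Ccne2 shares 609 of its 3495 bases with Ints8 on the opposite strand, and Ints8 was higher in DS38 (log2 fold change 0.30, edgeR adjusted p = 6.54e-05), opposite to Ccne2. Ccna2 shares 510 of 4083 bases with Exosc9 (log2 fold change -0.14, edgeR adjusted p = 0.0280). E2f8 shares 610 bases with Gm2788, which had 96 counts over all libraries against at least 830 per library for E2f8. The overlaps of E2f7 and Cdk2 were 86 and 34 bases, and E2f1, E2f2, E2f3, Ccne1 and Cdc25a had none.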

How the data were processed

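The authors deposited whole-number read counts per gene for 8 libraries, not normalized, with each gene's length. Per the submitters' processing notes, the tools included edgeR, R 4.1.0, Subread 2.0.3 with featureCounts, and STAR 2.7.9a, and the builds GRCm39 and GRCh38.p13 are named. The sources used here give neither the strand setting nor the annotation release nor how multiply mapped reads were treated. Identifiers were named through a table of gene names (52083 of 55416 matched). The whole table was fitted with edgeR 4.0.16 in R 4.3.3 (robust quasi-likelihood, TMM factors of 0.9753 to 1.032, filterByExpr minimum of 10 counts), with Benjamini-Hochberg adjustment over 15133 genes; the biological coefficient of variation was 5.53%. SE was derived from the F statistic and the fold change. Ratios used exact permutation tests in scipy 1.17.1. DESeq2 1.42.0 and limma 3.58.1 served as alternatives. Fits were checked on simulated counts with few changed genes and independent libraries. That check does not cover scaling when many genes change, or libraries that form sets.

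The members and lists were chosen with earlier results of these data known. Named genes are the 10 members, the 8 other E2F family and pocket protein genes, up to 4 genes with the smallest p in each other list and the 3 nearest profiles to E2f1 and Ccne2. No pair of libraries within a group agreed within counting noise (chi-square per degree of freedom from 4.25 to 20.5), so none was treated as a duplicate. DS38 replicates 1 and 2 stood apart from 3 and 4, and those of DMSO did so more weakly. Fits without either DS38 set were added after seeing the data, and none left out a DMSO set. Counts of reads without molecular identifiers are not counts of independent molecules. Promoter sequences and start sites are RefSeq's (GRCm38.p6); other coordinates are not given because the builds differ.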

Additional observations from a re-analysis of the deposited data

Results flagged for a closer look

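In groups of 4 libraries, a gap between 1 library and the rest that took up more of the group's range than Dixon's 95% critical value was looked for in 96 groups, where chance gives about 1 in 20; 3 were found. Ccne2 stood at 65.6 CPM in DS38 replicate 1, against 70.2 to 70.9 CPM in the other DS38 libraries, and its call held without that library. The log2 ratio of E2f1 to E2f3 was 0.247 in DS38 replicate 4, against 0.175 to 0.181 in the other DS38 libraries. Eef1g, named for its nearness to E2f1, stood at 1152 CPM in DS38 replicate 4, against 1117 to 1120.3 CPM in the others.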

How the results depend on the processing

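The 8 falls among the members kept direction and threshold under all 19 alternatives, including a gene length correction and the omission of either set of DS38 libraries (1 and 2, or 3 and 4), chosen after seeing the data, and 8 to 9 fell and 0 rose when single libraries were left out. Ccna2 turned to 0.0321 and Lin9 to 0.0402 on the log2 scale with library totals alone, and Lin9 ranged from -0.0386 without DMSO replicate 2 to 0.00846 without DS38 replicate 2. The calls in the list of E2F family and pocket proteins numbered 3 with library totals alone, against 6, 4 with DESeq2, DESeq2's size factors, either filter or either set of DS38 libraries left out, 7 with the gene length correction, and 4 to 5 without single libraries; the cause was not tested. Whether replicate numbers pair the libraries is not settled. The libraries numbered 1 deviated together with r = 0.331, higher than any differently numbered pair of a DS38 and a DMSO library (at most 0.187). For replicates 2 to 4 r ran from -0.0816 to 0.067. With the replicate number as a block, 8 members fell, and 4 genes of that list were called; exact sign-flip permutation within numbers gave p = 0.125 for the ratios Ccne2/Ccne1 and E2f1/E2f2, the smallest that 4 pairs allow. Without both libraries numbered 1, 8 members fell. The least counted member, E2f2, had 397 reads in its shallowest library.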
